A study of Arabidopsis thaliana with 6 samples.

Results

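The RNA that came down with the nuclear speckle protein NSRa was compared with the RNA of the lysate it was taken from, function by function. The table of the series lists 39351 features. Of these, 38383 had a value in both NSRa-HA immunoprecipitates (RIP) and both lysate samples (Input), and the 19954 that also reached 1 FPKM (fragments per kilobase of exon, scaled to the reads of the library) in at least 2 of the 4 libraries are described here. They comprised 19056 protein-coding genes, 310 lncRNAs, 200 other non-coding RNAs, 171 snoRNAs, 160 assembled loci without annotation, 42 snRNAs, 7 tRNAs, 4 antisense RNAs, 3 rRNAs and 1 pseudogene. The 968 features with no RIP value were the 284 organelle genes and 684 assembled loci.

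All libraries came from Arabidopsis thaliana seedlings with the genotype label pNSRa:NSRa-HA, an HA-tagged NSRa driven by its own promoter in the nsra mutant background. All seedlings received the synthetic auxin naphthaleneacetic acid (NAA) for 24 h and UV light at 0.400 J/cm2, so auxin and crosslinking are shared by every group. The labels disagree on the dose (100 nM or 1 µM) and on the age (10, 14 or 15 days). The 2 RIP libraries used an anti-HA antibody, the 2 Input libraries a saved fraction of the lysate, and the 2 Mock libraries mouse IgG. Nothing in the labels says whether the duplicates came from separate cultures, so the p-values measure only the spread between these libraries, which may be technical.

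Nuclear speckles are bodies of the nucleus in which splicing factors and the small nuclear ribonucleoproteins (snRNPs) of the spliceosome gather. NSRa and its paralog NSRb reside there, bind pre-mRNAs and non-coding RNAs, and take part in alternative splicing during the auxin response of roots. An immunoprecipitate is read against its Input: an RNA that is retained with the protein takes a larger share of the reads in RIP than in Input, and an RNA that is left behind a smaller share. Both are relative, since each library is scaled to its own total. Summed reads of a class are given as CPM, counts of reads scaled to a common library total.

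The RIP libraries held 1599136 and 977230 reads, the Input libraries 27494964 and 25274634, and the Mock libraries 197923 and 154149. RIP was far shallower than Input, and 3376 and 3115 of the 19954 features were at 0 in RIP 1 and RIP 2, against 67 and 65 in Input 1 and Input 2. The pooled SD between replicates on the log2(FPKM + 1) scale was 0.927 in RIP and 0.0878 in Input. The transcript of NSRa itself (AT1G76940) had 145 and 105 FPKM in RIP, 11.4 and 12.1 FPKM in Input and 181 and 60.3 FPKM in Mock (log2 fold change 3.29 ± 0.20, adjusted p = 0.00339), so it was among the higher features. Of the tissue markers, all 6 shoot photosynthesis markers were above 0 in every library, and 6 of 10 root markers were above 0 in each RIP library against 10 of 10 in each Input library. Their summed FPKM was 7097 and 7508 in RIP, 21419 and 21427 in Input and 3106 and 8415 in Mock for shoot, and 59.2 and 63.4 in RIP, 115 and 105 in Input and 93.3 and 0 in Mock for root. Mock had reads for 218 of the 327 features called higher in the comparison below and none for 109. Over all 19954 features, 13460 had no Mock reads. The part of Mock in the results below was not tested.

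Of the 19954 features, 327 (1.64%) were higher in RIP than in Input and 1196 (5.99%) were lower, by a limma fit with adjusted p under 0.01 and a log2 fold change above 2 or below -2. Both RIP libraries were above both Input libraries for 4527 features (22.7%) and below both for 10031 (50.3%). The median log2 fold change over all features was -0.52, and values of gene groups are read against this shift. Shares of a group above or below Input in both RIP libraries are read against 22.7% and 50.3%. The higher side was rich in non-coding RNA: 29 of 42 snRNAs, 25 of 171 snoRNAs, 26 of 310 lncRNAs, 26 of 200 other non-coding RNAs and all 3 rRNAs were called, against 205 of 19056 protein-coding genes. On the lower side stood 1087 protein-coding genes (5.70%), 30 snoRNAs (17.5%), 28 other non-coding RNAs (14%), 29 assembled loci (18.1%), 19 lncRNAs (6.13%) and 2 snRNAs (4.76%). All features had 5.99%, so snoRNAs, other non-coding RNAs and assembled loci were over that share on the lower side too. Of the 1196 lower features, 891 had no read in either RIP library, so their fold change is bounded by depth. The filter also shaped these shares. A feature under 1 FPKM in both Input libraries passed through RIP alone and could not come out lower. A feature under 1 FPKM in both RIP libraries passed through Input alone and could not come out higher. The 42 snRNAs are those of 78 that passed, with a median Input of 0.715 FPKM.

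Both counts changed widely with the depth, the scaling, the model and the libraries used. With Input thinned to RIP depth, 11 features were higher and 0 lower (limma; 2113 and 5050 by unadjusted p under 0.05), with voom on the recovered reads 7 were higher and 0 lower (2794 and 5271 at an unadjusted p under 0.05), and with quantile normalization 505 were higher and 546 lower, which put 48.0% of the called features on the higher side in place of 21.5%. Leaving out Input 1 or Input 2 gave 18 or 16 higher features, and leaving out RIP 1 or RIP 2 gave 714 or 909. Of the 184 called genes that the naming rule gave, 2 kept their call with thinned Input, 0 with voom, 13 with a replicate block, and 71 or 67 without Input 1 or Input 2, and none changed direction. The calls given below are those of the limma fit on FPKM.

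**Figure D1:**
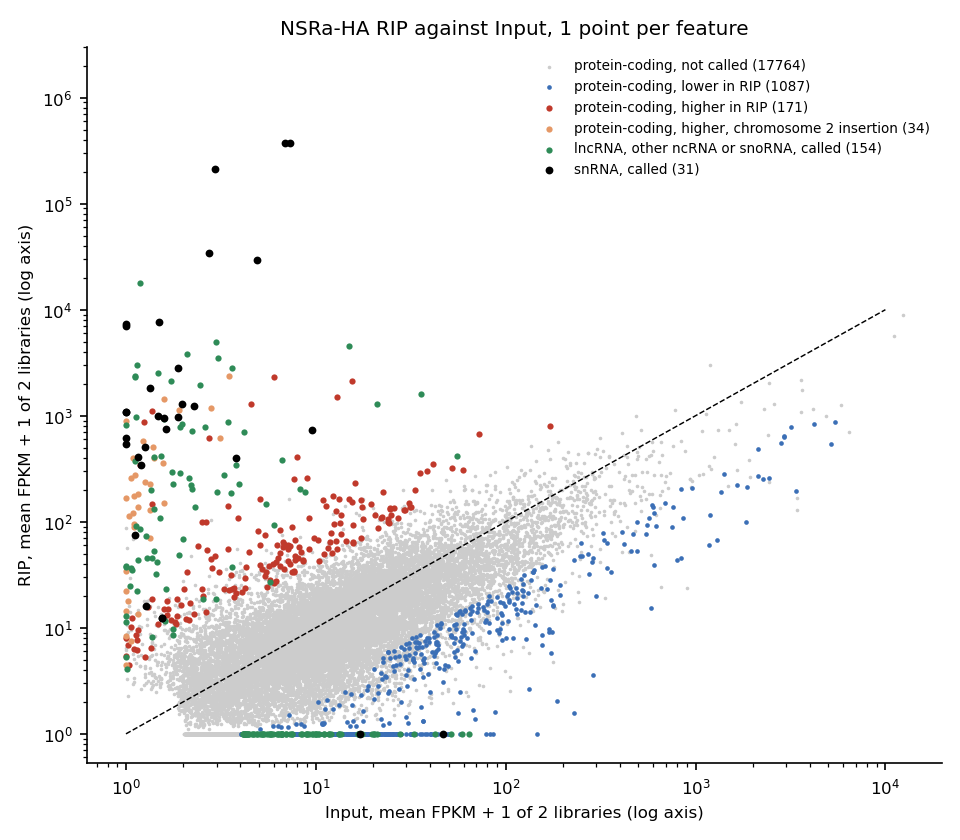
Mean FPKM + 1 in RIP (vertical, log axis) against mean FPKM + 1 in Input (horizontal, log axis), each over 2 libraries, for features grouped by class and call; the dashed line marks equal values. The called snRNAs, in black, reach the top of the RIP axis at low Input levels, and lower features with no RIP reads lie on the line at 1.

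The snRNAs are the RNA cores of the snRNPs: U1 pairs with the 5′ splice site, U2 with the branch site, U5 holds the exons together and U6 forms part of the catalytic centre after leaving U4. Together they took 130789 and 213413 CPM in RIP, 26.2 and 28.1 in Input and 99488 and 104568 in Mock. Reads of near copies may be counted more than once in such sums. U1 made up nearly all of the snRNA sum in RIP and Mock, with 123964 and 207998 CPM in RIP, 8.4 and 9.46 in Input and 94451 and 96277 in Mock. Of its 9 genes, 7 were higher. U2 genes held 3354 and 2148 CPM in RIP, 11.1 and 11.7 in Input and 1076 and 2848 in Mock, with 10 of 15 higher and 1 lower. U6 was the least changed type, with 22.5 and 12.3 CPM in RIP, 4.22 and 4.59 in Input and 0 and 0 in Mock and 3 of 6 genes higher. The 6 include U6acat, which had the highest log2 fold change of the type (3.64), while U4atac was counted as a type apart. The 3 calls rested on few reads. U6-1 and U6.3 had 2 and 1 RIP reads each and equal values in every library, and U6acat had 5 and 3. U6 was also the type with 0 reads in both Mock libraries. There 1 read was worth 5.05 and 6.49 CPM, so a 0 says little at the U6 level. The U1 gene U1.6 (read from 12 bases before its annotated start) and a gene each of U2 and U5 are shown to let their base-pairing elements be compared, in capitals, from RefSeq TAIR10.1 (U1.6 chr3:1681804-1681977 plus strand, U2.1 chr1:5758382-5758575 plus strand, U5.5 chr1:8525104-8525204 minus strand).
U1.6: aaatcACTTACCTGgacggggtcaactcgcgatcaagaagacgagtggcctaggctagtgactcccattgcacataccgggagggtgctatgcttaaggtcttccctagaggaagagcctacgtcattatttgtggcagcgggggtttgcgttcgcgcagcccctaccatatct
U2.1: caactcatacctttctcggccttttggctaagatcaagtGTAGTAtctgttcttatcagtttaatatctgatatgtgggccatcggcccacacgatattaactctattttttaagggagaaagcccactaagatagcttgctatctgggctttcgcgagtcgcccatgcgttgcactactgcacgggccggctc
U5.5: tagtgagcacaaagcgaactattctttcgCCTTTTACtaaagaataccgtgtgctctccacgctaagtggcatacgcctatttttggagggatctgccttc

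The capitals mark ACTTACCTG, which is complementary to the 5′ splice site, in U1.6, GTAGTA, which faces the branch site, in U2.1, and the CCTTTTAC of the loop that contacts exons in U5.5. Searched on the given strand of the annotated genes, ACTTACCTG was found in 2 of 9 U1 genes, GTAGTA in 11 of 15 U2 genes and CCTTTTAC in 4 of 4 U5 genes, against 0 of 33, 0 of 27 and 0 of 38 snRNAs of other types. The annotated start of U1.6 lies inside its motif, so U1.6 is not among the 2. Bases before the annotated start of the other U1 genes were not searched, so the count does not show that they lack the element. No pair of the 42 snRNA genes had identical annotated sequences, but near copies had equal counts. U1.6 and U1.7 had 71161 reads each in RIP 1, 6747 in Mock 1 and 5337 in Mock 2. The same reads may thus be counted at both, and the split among copies is uncertain.

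snoRNAs, which guide the chemical modification of rRNA, divided: 25 were higher and 30 lower of 171, all 30 with no RIP reads, and the median was 0.34, but 2.09 with RIP 1 alone and -1.27 with RIP 2 alone, so its sign turned with the library. U3D, a U3 snoRNA of pre-rRNA processing, had 5004 and 2614 FPKM in RIP, 1.01 and 1.21 FPKM in Input and 51854 and 37594 FPKM in Mock. For the snoRNAs as a class, 6841 and 3239 CPM in RIP, 184 and 193 in Input and 46679.8 and 33889 in Mock were recorded, so Mock exceeded RIP. The 310 lncRNAs had a median of 0.11 (0.26 with RIP 1 alone and -0.11 with RIP 2 alone), with 26 higher and 19 lower, and 18520 and 20067 CPM in RIP, 1574 and 1582 in Input and 139599.7 and 86299.6 in Mock. GUT15, a cytokinin-responsive non-coding RNA, had 309.7 and 308 FPKM in RIP, 83.4 and 86.1 FPKM in Input and no reads in either Mock library, a fold change just short of the threshold (log2 fold change 1.85 ± 0.072, adjusted p = 0.00236). The 160 assembled loci had a median of -1.21, with 10 higher and 29 lower.

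A further set stood out by position and not by function. Chromosome 2 carries a large insertion of mitochondrial DNA with 139 features. Those under 1 FPKM in both Input libraries could pass the filter through RIP alone and could not come out lower. In all, 59 features of the insertion are members. Of these, 42 were higher and 0 lower, with a median log2 fold change of 6.24, and together they took 17613 and 10284 CPM in RIP, 18.3 and 16.2 in Input and 9574 and 16354 in Mock. AT2G07707, a copy of the gene for subunit 8 of the mitochondrial ATP synthase, had 1974 and 912 FPKM in RIP, 0.686 and 0.498 FPKM in Input and 0 and 789 FPKM in Mock. AT2G07687, a copy of cytochrome c oxidase subunit III, had 672 and 474 FPKM in RIP, 0.255 and 0.198 FPKM in Input and 101 and 429 FPKM in Mock. The insertion is nearly identical to mitochondrial DNA, and the organelle genes have no RIP value, so these reads cannot be told apart from mitochondrial RNA. The members of the insertion were left out of the lists that follow, after their values were seen, which leaves 171 higher protein-coding genes of 205 and all 1087 lower ones.

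Across 66 lists of gene families and pathways, grouped in 7 themes, 31 of the 171 higher genes were stress and hormone regulators and 12 were signalling or immunity genes, while of the 1087 lower genes 80 belonged to metabolism and defence products, 51 to stress and hormone regulators, 42 to cell wall and growth and 22 to photosynthesis. As shares of the genes tested, 3.08% of stress and hormone regulators and 2.38% of signalling and immunity genes were higher, against 1.64% of all features. The lists hold protein-coding genes alone, of which 1.08% were higher and 5.70% lower. Outside the insertion 171 of 19008 protein-coding genes were higher. Lower genes made up 17.9% of photosynthesis, 15.8% of cell wall and growth, 12.3% of metabolism and defence products and 5.07% of stress and hormone regulators, against 5.99% of all features. By theme, the median was 0.12 for 505 signalling and immunity genes, -0.093 for 256 genes of RNA metabolism, -0.21 for 1005 stress and hormone regulators and -0.40 for 547 translation and housekeeping genes. It was -0.98 for 650 genes of metabolism and defence products, -1.07 for 266 cell wall and growth genes and -1.36 for 123 photosynthesis genes. The background was -0.52. Mock reads were present for 105 of the 171 higher genes (61.4%), against 33.2% of all protein-coding genes and 17.7% of the lower ones. A higher mean in Mock than in RIP was found for 30 of the 171 higher genes and 106 of the 1087 lower ones. Exons of 11 of the 171 overlapped another gene on the same strand, in 7 cases a non-coding RNA, and their reads are uncertain.

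**Figure D2:**
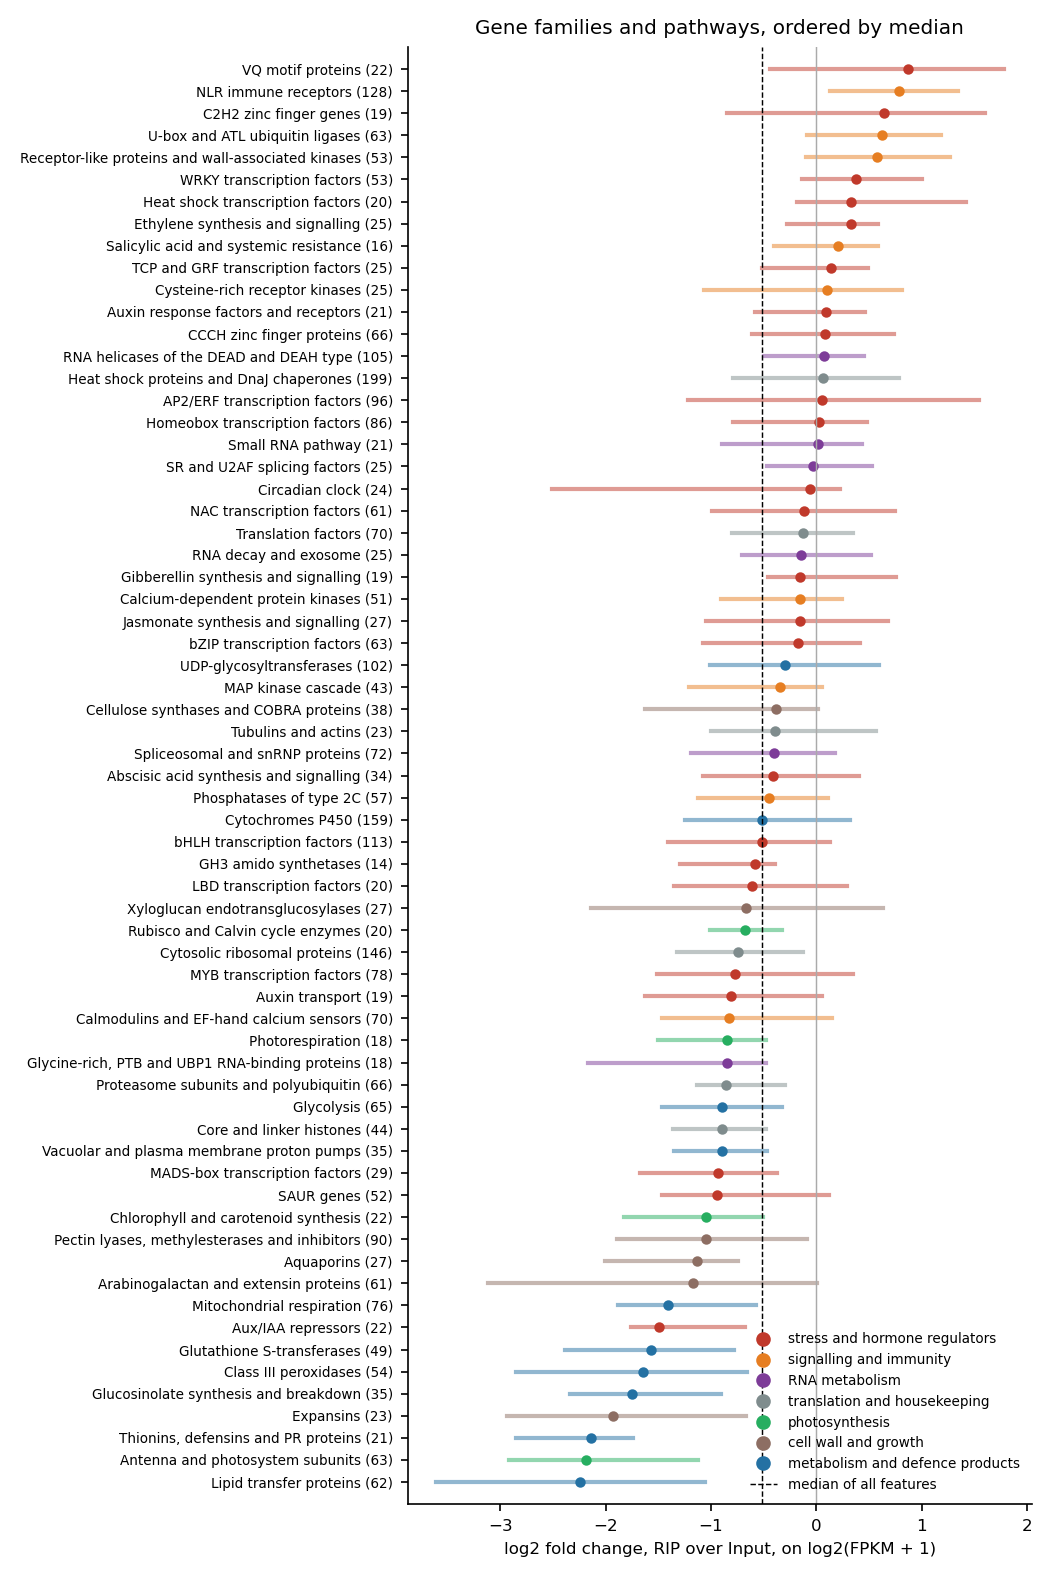
Median log2 fold change of RIP over Input (points, on the log2(FPKM + 1) scale) and the range from lower to upper quartile (bars) for 65 lists with at least 14 protein-coding members, the number tested in parentheses. VQ, NLR and zinc finger genes stand right of the dashed median of all features at -0.52, and lipid transfer proteins, antenna subunits and defensins stand farthest left.

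AP2/ERF factors, which act in ethylene, cold and defence responses, had 12 higher and 7 lower of 96, and a median of 0.051. ERF104, a defence regulator acting downstream of ethylene and flagellin, had 137 and 187 FPKM in RIP, 4.24 and 3.9 FPKM in Input and 90.9 and 51.4 FPKM in Mock (log2 fold change 4.99 ± 0.20, adjusted p = 0.00236; chr5:24766344-24767732, minus strand). AT5G51190, another ERF gene, had 125 and 71 FPKM in RIP, 1.62 and 1.68 FPKM in Input and 0 and 80.7 FPKM in Mock (log2 fold change 5.17 ± 0.35, adjusted p = 0.00423). TEM1, a repressor of flowering, had 144 and 204 FPKM in RIP, 11.1 and 11.4 FPKM in Input and 0 and 95.9 FPKM in Mock (log2 fold change 3.81 ± 0.21, adjusted p = 0.00282). For each of these genes both RIP libraries lay far above both Input libraries, and each had reads in at least 1 Mock library. Among the other higher members, chosen for mention after their values were seen and given with their log2 fold change, ERF5 (3.56), ERF11 (2.97), ERF13 (3.73) and ERF2 (2.57) had no Mock reads, and ERF6 (2.60) and ERF-1 (3.03) had them in Mock 2 alone.

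The family was not uniform. Of its 7 lower members 6 had no RIP reads, among them DREB1A, a cold regulator also known as CBF3, with 0 FPKM in both RIP libraries, 7.01 and 7.03 FPKM in Input and no reads in either Mock library (at least 8.38-fold lower). Its neighbour CBF1, named after its values were seen, was called in the other direction, with 3.6 and 5.05 FPKM in RIP, 0.269 and 0.26 FPKM in Input and no reads in either Mock library, a difference that rested on 7 and 6 RIP reads. TOE3, an AP2 factor of the flowering pathway, was at least 15.2-fold lower, with no read in either RIP library. The family thus held genes with over 100 FPKM in RIP beside genes with no RIP reads.

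WRKY factors, which bind the W-box of defence promoters, had 2 higher and 0 lower of 53. Both RIP libraries were above both Input libraries for 43.4% of them, against 22.7% of all features. WRKY40, a repressor of defence against biotrophs, had 31.6 and 34 FPKM in RIP, 1.07 and 1.1 FPKM in Input and no reads in either Mock library (log2 fold change 4.02 ± 0.22, adjusted p = 0.00273; chr1:30383561-30385499, plus strand). WRKY18, its partner in dimers, had 25.3 and 19.2 FPKM in RIP, 2.26 and 2.28 FPKM in Input and no reads in either Mock library (log2 fold change 2.82 ± 0.26, adjusted p = 0.00884). Neither had a Mock read, and the median of the family was 0.37. Summed over the family, 1999 and 1317 CPM in RIP, 852 and 861 in Input and 723 and 558 in Mock were found, so RIP exceeded both other groups.

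Some zinc finger genes were higher too. STZ, also called ZAT10, a repressor induced by salt, cold and wounding, had 122 and 159 FPKM in RIP, 2.76 and 2.16 FPKM in Input and 143 and 0 FPKM in Mock (log2 fold change 5.34 ± 0.21, adjusted p = 0.00236; chr1:9648021-9649323, minus strand). ZAT6, a regulator of phosphate and stress responses, had 47.4 and 54.9 FPKM in RIP, 3.43 and 3.52 FPKM in Input and no reads in either Mock library (log2 fold change 3.54 ± 0.16, adjusted p = 0.00236). Over the 19 C2H2 genes tested, 2 were higher and 1 lower, with a median of 0.64 (0.25 with RIP 1 alone and 0.47 with RIP 2 alone). CCCH proteins, many of which act on RNA, had 3 higher and 1 lower of 66 and a median of 0.082. SZF1, a CCCH protein of the salt response, had 93.6 and 84 FPKM in RIP, 6.6 and 6.41 FPKM in Input and 218 and 33.3 FPKM in Mock, and its close relative CZF1 had 74.4 and 78.5 FPKM in RIP, 12 and 13.3 FPKM in Input and 2.05 and 23.7 FPKM in Mock. VQ proteins, small partners of WRKY factors, had the highest median of the lists with at least 14 members, 0.87, although 1 was higher and 1 lower of 22. Heat shock factors had a median of 0.33, with 1 higher and 1 lower of 20.

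Of the other factor families, NAC genes lay above the background, bHLH genes at it and MYB and MADS-box genes below it. The median was -0.52 for 113 bHLH genes (0 higher, 9 lower), -0.78 for 78 MYB genes (1 higher, 6 lower), -0.12 for 61 NAC genes (0 higher, 1 lower) and -0.93 for 29 MADS-box genes (0 higher, 4 lower). MYB73, a salt-responsive regulator, had 139.9 and 119.5 FPKM in RIP, 24.4 and 22.6 FPKM in Input and 0 and 89.1 FPKM in Mock (log2 fold change 2.41 ± 0.12, adjusted p = 0.00247). MYB29, a regulator of aliphatic glucosinolates, had 1.45 and 1.18 FPKM in RIP, 16.7 and 15.7 FPKM in Input and no reads in either Mock library (log2 fold change -2.90 ± 0.25, adjusted p = 0.00723), and PAP1, the activator of anthocyanin synthesis, was at least 10.3-fold lower with no RIP reads. AGL20, the floral integrator SOC1, had 2.82 and 1.32 FPKM in RIP, 45.4 and 46 FPKM in Input and no reads in either Mock library (log2 fold change -3.97 ± 0.33, adjusted p = 0.00698). MADS-box genes were below Input in both RIP libraries for 65.5% of members, against 50.3% of all features.

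Most immune receptor genes were displaced to the higher side without passing the test. NLR proteins detect pathogen effectors inside the cell, and of 128 NLR genes tested 6 were higher and 0 lower. Both RIP libraries were above both Input libraries for 71.1% of NLR genes, where all features had 22.7%, and below both for 7.81%, where all features had 50.3%. The median of the list was 0.79, and 0.87 and 0.78 with RIP 1 or RIP 2 alone. AT1G66090, a TIR-NBS gene, had 15.7 and 12.3 FPKM in RIP, 0.72 and 0.617 FPKM in Input and 0 and 73.9 FPKM in Mock (log2 fold change 3.16 ± 0.26, adjusted p = 0.0068). AT4G19530, a TIR-NBS-LRR gene, had 57.8 and 71.2 FPKM in RIP, 13.2 and 13.7 FPKM in Input and 12.7 and 55.4 FPKM in Mock (log2 fold change 2.17 ± 0.15, adjusted p = 0.00464). All 6 higher NLR genes had Mock reads, while 72 of all 128 NLR genes had none. Summed over the list there were 8746 and 8668 CPM in RIP, 4254 and 4306 in Input and 4295 and 5248 in Mock. AT1G58807 had 125 and 150.1 FPKM in RIP, 30.2 and 30.6 FPKM in Input and 49.4 and 84.1 FPKM in Mock. Its near copy AT1G59124 had the same RIP and Mock values, so the split between them is uncertain. Both are among the 6 higher NLR genes, as is AT1G59218 of the same CC-NBS-LRR class (log2 fold change 2.12). The 6 calls may therefore count the same reads more than once.

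Among cell surface receptors and ubiquitin ligases the medians were also above the background. Over all features, 22.7% lay above Input in both RIP libraries and 50.3% below. Cysteine-rich receptor kinases had 0 higher and 1 lower of 25, with 40% above and 36% below and a median of 0.11. Receptor-like proteins and wall-associated kinases, which monitor the cell wall and its surroundings, had 1 higher and 0 lower of 53, with 58.5% above and 17% below, and a median of 0.57. RLP31 had 27.6 and 26.3 FPKM in RIP, 4.56 and 4.89 FPKM in Input and no reads in either Mock library (log2 fold change 2.29 ± 0.17, adjusted p = 0.00537). U-box and ATL ubiquitin ligases, among them early elicitor-responsive genes, had 1 higher and 0 lower of 63, with 55.6% above and 9.52% below. ATL2, the higher member, had 97.3 and 66.9 FPKM in RIP, 5.43 and 5.5 FPKM in Input and 0 and 33 FPKM in Mock (log2 fold change 3.66 ± 0.24, adjusted p = 0.00386). LYK5, a chitin receptor outside these lists and named after its values were seen, had 27.7 and 36.9 FPKM in RIP, 2.01 and 2.14 FPKM in Input and no reads in either Mock library (log2 fold change 3.42 ± 0.25, adjusted p = 0.00519).

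Downstream signalling was mixed. MKK9, a MAP kinase kinase of the ethylene and camalexin pathways, had 66.4 and 46.1 FPKM in RIP, 5.93 and 6.39 FPKM in Input and no reads in either Mock library (log2 fold change 2.98 ± 0.24, adjusted p = 0.00633), while the 43 genes of the MAP kinase cascade had a median of -0.35. CIPK15, a kinase that acts with calcineurin B-like calcium sensors, had 74 and 65.3 FPKM in RIP, 16.2 and 16.4 FPKM in Input and 0 and 47.8 FPKM in Mock, and was the only called gene of 51 calcium-dependent kinases. Calmodulins and EF-hand sensors had 1 higher and 6 lower of 70, with a median of -0.82. The higher member, AT4G27280, had 125 and 105 FPKM in RIP, 12.5 and 12.7 FPKM in Input and no reads in either Mock library (log2 fold change 3.09 ± 0.13, adjusted p = 0.00236). LOX4, a lipoxygenase of jasmonate synthesis, had 11.3 and 11.1 FPKM in RIP, 1.04 and 1.1 FPKM in Input and no reads in either Mock library (log2 fold change 2.56 ± 0.22, adjusted p = 0.00783) and was the only called member of 27 jasmonate genes. Of the 16 salicylic acid genes, ICS2, a minor isochorismate synthase, was at least 42.1-fold lower, with 0 FPKM in both RIP libraries, 23.4 and 23.2 FPKM in Input and no reads in either Mock library.

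Among protein-coding genes of RNA metabolism, splicing factor and helicase lists lay above the background and RNA-binding proteins of the glycine-rich, PTB and UBP1 type below it. The median was -0.03 for 25 SR and U2AF factors (0 higher, 1 lower), -0.40 for 72 spliceosomal and snRNP proteins (0 higher, 0 lower by limma, 20.8% lower and 12.5% higher at an unadjusted p under 0.05) and 0.077 for 105 RNA helicases (0 higher, 0 lower). The lower SR gene, SR30, whose own transcript is alternatively spliced, had 5.27 and 3.63 FPKM in RIP, 41.5 and 40.2 FPKM in Input and 0 and 2.88 FPKM in Mock (log2 fold change -2.96 ± 0.23, adjusted p = 0.00567). CAF1a, a deadenylase that shortens poly(A) tails of stress-induced mRNAs, had 50.4 and 43.6 FPKM in RIP, 1.87 and 2.01 FPKM in Input and 0 and 14.5 FPKM in Mock (log2 fold change 4.02 ± 0.19, adjusted p = 0.00236). It was the only called member of 25 genes of RNA decay. The 18 glycine-rich, PTB and UBP1 proteins had 0 higher and 4 lower, with 77.8% below Input in both RIP libraries and a median of -0.85. CCR1, the glycine-rich protein GRP8 of the circadian system, had 104 and 80.6 FPKM in RIP, 535 and 569 FPKM in Input and 0 and 47 FPKM in Mock (log2 fold change -2.58 ± 0.16, adjusted p = 0.00376).

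A few higher genes, picked from the called genes after their values were seen, are known for roles in sugar and energy signalling; no list of that response was counted, so no change of the response follows from them. BT2, a BTB and TAZ domain protein of sugar and nitrate signalling, had 319 and 319.9 FPKM in RIP, 50.2 and 51.7 FPKM in Input and 283 and 309 FPKM in Mock (log2 fold change 2.62 ± 0.071, adjusted p = 0.00236). DIN10, a dark-inducible raffinose synthase gene, had 732 and 606 FPKM in RIP, 72.1 and 71.3 FPKM in Input and 314 and 528 FPKM in Mock (log2 fold change 3.20 ± 0.13, adjusted p = 0.00236). BT1 (3.08), BT4 (2.71), BT5 (2.70), the trehalose-phosphate synthase genes TPS8 (2.45) and TPS9 (2.54), and ERD5, a proline dehydrogenase (2.37), were called in the same direction, the log2 fold change standing in parentheses. bZIP1, a regulator of the starvation response and the called higher member of the bZIP list, had 184 and 139.9 FPKM in RIP, 12.7 and 15.1 FPKM in Input and 0 and 122 FPKM in Mock (log2 fold change 3.44 ± 0.20, adjusted p = 0.00297). Each of the genes in this set had reads in at least 1 Mock library.

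Auxin genes, which answer to compounds such as NAA, spread on both sides of the background. Aux/IAA proteins, the repressors that auxin removes, had 0 higher and 0 lower of 22 by limma (45.5% lower and 0% higher at an unadjusted p under 0.05), but both RIP libraries were below both Input libraries for 77.3% and above for 0%, and the median was -1.49. IAA9, the most abundant in Input, had 90.3 and 76.1 FPKM in RIP, 170.2 and 174 FPKM in Input and 75.6 and 81.9 FPKM in Mock (log2 fold change -1.04 ± 0.12, adjusted p = 0.0143). LBD29, an auxin-induced factor of lateral root formation, had 3.21 and 2.1 FPKM in RIP, 37.2 and 38.6 FPKM in Input and no reads in either Mock library (log2 fold change -3.43 ± 0.25, adjusted p = 0.00493). SAUR genes, short transcripts induced by auxin, had 1 higher and 6 lower of 52 and a median of -0.94. The higher member, AT3G12830, had 65.9 and 42.9 FPKM in RIP, 2.23 and 2.67 FPKM in Input and no reads in either Mock library (log2 fold change 3.98 ± 0.29, adjusted p = 0.00527), and SAUR63 was at least 6.01-fold lower with no RIP reads. The median was 0.091 for 21 auxin response factors and receptors (0 called), -0.59 for 14 GH3 genes (1 higher) and -0.81 for 19 transport genes (1 lower, PIN5). ARF2 had 150.3 and 113 FPKM in RIP, 93.4 and 92 FPKM in Input and 78.3 and 67.1 FPKM in Mock, a difference that did not pass (log2 fold change 0.49 ± 0.17, adjusted p = 0.135).

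For other hormones the median was 0.33 for 25 ethylene genes (0 higher, 1 lower), -0.15 for 19 gibberellin genes (0 called) and -0.41 for 34 abscisic acid genes (0 higher, 1 lower). Of 7 type-A cytokinin response regulators, RR3 alone was called, with 1105 and 1909 FPKM in RIP, 11.9 and 12 FPKM in Input and 84174 and 34437 FPKM in Mock (log2 fold change 6.81 ± 0.32, adjusted p = 0.00236). Its Mock level was far above RIP, as it was for GRF8, a growth-regulating factor, with 352 and 1400.4 FPKM in RIP, 0.211 and 0.268 FPKM in Input and 35336 and 41376 FPKM in Mock. The clock genes split: RVE2, a Myb-like factor, had 51 and 75.2 FPKM in RIP, 5.46 and 5.93 FPKM in Input and no reads in either Mock library (log2 fold change 3.23 ± 0.25, adjusted p = 0.00581). PRR9, a morning repressor, had 0 FPKM in both RIP libraries, 19.4 and 20.1 FPKM in Input and 0 and 3.03 FPKM in Mock and was at least 36.3-fold lower, and ELF4, of the evening complex, had 5.68 and 6.2 FPKM in RIP, 41.5 and 44.7 FPKM in Input and 0 and 68.8 FPKM in Mock (log2 fold change -2.67 ± 0.14, adjusted p = 0.00263). Between them, the 24 clock genes had a median of -0.064, but -0.52 with RIP 1 alone and -0.75 with RIP 2 alone, so neither RIP library alone placed the list above the background.

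**Figure D3:**
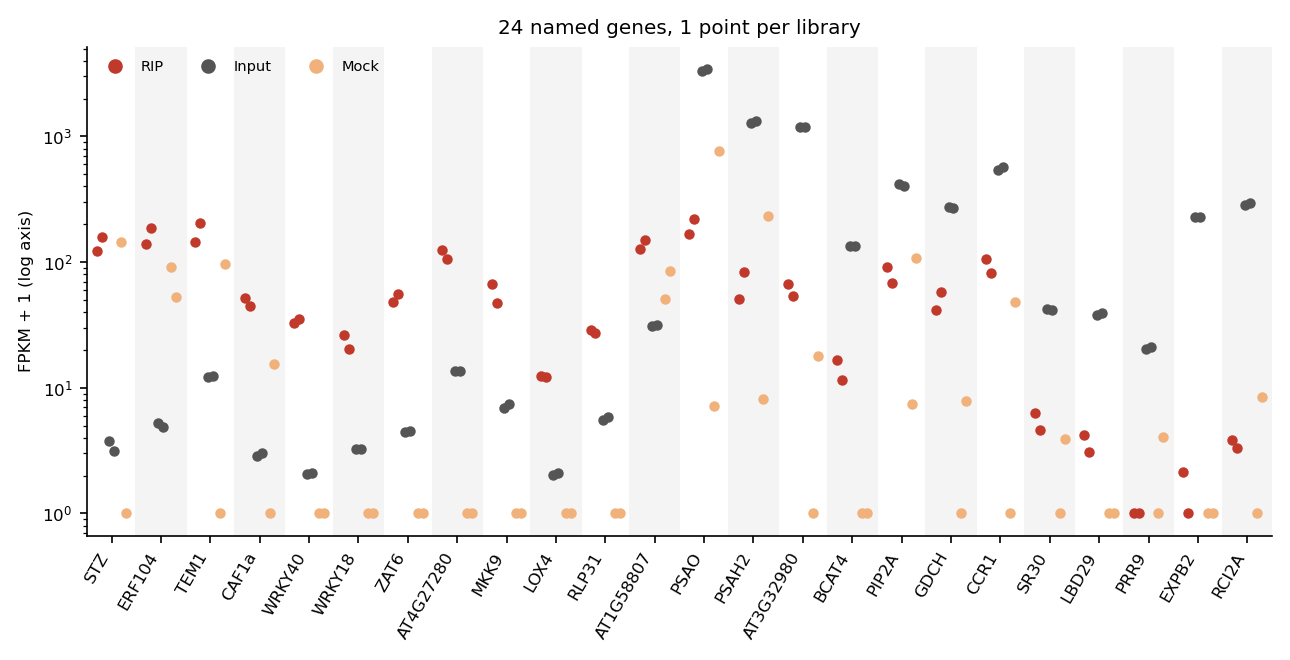
FPKM + 1 (vertical, log axis) of 24 named genes, with 1 point per library and RIP, Input and Mock side by side within each gene. RIP lies above Input for the 12 genes on the left, from STZ to AT1G58807, and below it for the 12 on the right, from PSAO to RCI2A; points at 1 have no reads.

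Genes of the light reactions made up an abundant lower group. Of 63 nuclear genes for antenna proteins and photosystem subunits, 0 were higher and 20 lower, 93.7% lay below Input in both RIP libraries, and the median was -2.19 (-2.05 and -2.15 with RIP 1 or RIP 2 alone). Together they took 43318 and 40056 CPM in RIP, 140877 and 138586 in Input and 17911 and 51677 in Mock. PSAO, a subunit of photosystem I, had 166 and 219 FPKM in RIP, 3344 and 3424 FPKM in Input and 6.17 and 760.4 FPKM in Mock (log2 fold change -4.14 ± 0.19, adjusted p = 0.00236; chr1:2640803-2641934, minus strand). PSAH2, another subunit at which antenna proteins dock, had 49.9 and 83.1 FPKM in RIP, 1285 and 1319.5 FPKM in Input and 7.2 and 231 FPKM in Mock (log2 fold change -4.32 ± 0.29, adjusted p = 0.00443). The 2 Mock libraries differed widely for both genes, and both lay below Input. Carbon fixation was displaced less: the 20 genes of Rubisco and the Calvin cycle had a median of -0.68 with 0 called, and RBCS1A, the main small subunit gene, had 1889 and 2496 FPKM in RIP, 3545 and 3598 FPKM in Input and 1116 and 2691 FPKM in Mock, which did not pass (log2 fold change -0.72 ± 0.25, adjusted p = 0.13). Photorespiration had 2 lower of 18, among them GDCH, the H protein of glycine decarboxylase, with 40.4 and 56.4 FPKM in RIP, 271 and 269 FPKM in Input and 0 and 6.87 FPKM in Mock (log2 fold change -2.48 ± 0.20, adjusted p = 0.00629). Chlorophyll and carotenoid synthesis had a median of -1.05, with 1 higher, HEMA2, and 0 lower of 22.

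Of the 6 lists of cell wall and growth genes, 5 had a median below the background, and cellulose synthases and COBRA proteins (-0.38; 0 higher, 4 lower of 38) lay above it. Expansins, which loosen walls during growth, had 0 higher and 5 lower of 23 and a median of -1.93. EXPB2 had the lowest log2 fold change of all protein-coding genes tested, with 1.14 and 0 FPKM in RIP, 227 and 228 FPKM in Input and no reads in either Mock library (log2 fold change -7.29 ± 0.45, adjusted p = 0.00346; chr1:24427266-24428673, plus strand). EXPA11 had no RIP reads and was at least 22.4-fold lower. Arabinogalactan and extensin proteins had 0 higher and 13 lower of 61, pectin-modifying enzymes 0 higher and 12 lower of 90, and aquaporins 0 higher and 3 lower of 27. PIP2A, a plasma membrane aquaporin, had 90.6 and 67.7 FPKM in RIP, 419 and 403 FPKM in Input and 6.42 and 107 FPKM in Mock (log2 fold change -2.38 ± 0.18, adjusted p = 0.00557). Xyloglucan endotransglucosylases were the exception with a gene on each side: 5 of 27 were lower, among them XTH12 (at least 12.7-fold), and TCH4, a touch-induced member, was higher with 138 and 139 FPKM in RIP, 9.81 and 10.8 FPKM in Input and 114 and 61.2 FPKM in Mock (log2 fold change 3.63 ± 0.098, adjusted p = 0.00236).

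Lipid transfer proteins, small carriers of cuticle and membrane lipids, had 0 higher and 14 lower of 62. In the main fit their median, -2.25, was the lowest of the lists with at least 14 members, but this rank changed with the libraries. With RIP 1 alone it was -1.95, against -2.05 for antenna and photosystem subunits. With RIP 2 alone it was -2.22, against -2.62 for thionins, defensins and PR proteins. AT2G18370 had 0 FPKM in both RIP libraries, 83.2 and 86.6 FPKM in Input and no reads in either Mock library and was at least 65.5-fold lower. Thionins, defensins and PR proteins had 0 higher and 7 lower of 21, and 90.5% lay below Input in both RIP libraries. PDF2.1, a plant defensin, had 0 FPKM in both RIP libraries, 36.7 and 42.2 FPKM in Input and no reads in either Mock library and was at least 19.7-fold lower. Class III peroxidases, which act on wall phenolics and hydrogen peroxide, had 0 higher and 14 lower of 54, and AT3G32980 had 65.7 and 52.5 FPKM in RIP, 1182 and 1183 FPKM in Input and 0 and 16.8 FPKM in Mock (log2 fold change -4.31 ± 0.15, adjusted p = 0.00236).

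In metabolism, glucosinolate genes stood lowest in relation to their length. Glucosinolates are sulphur-rich defence compounds of the Brassicaceae, and 0 of 35 genes were higher and 8 lower, with 91.4% below Input in both RIP libraries and a median of -1.75. BCAT4, which starts methionine chain elongation, had 15.5 and 10.6 FPKM in RIP, 134 and 133 FPKM in Input and no reads in either Mock library (log2 fold change -3.29 ± 0.22, adjusted p = 0.00411). BGLU34, a myrosinase-type glucosidase, was at least 27.6-fold lower with no RIP reads. Glutathione S-transferases had 0 higher and 8 lower of 49 and a median of -1.57. Cytochromes P450 stood at the background with -0.51, 3 higher and 9 lower of 159. CYP81F2, an enzyme of indole glucosinolate modification, had 34 and 27.2 FPKM in RIP, 2.74 and 2.42 FPKM in Input and 0 and 25.7 FPKM in Mock (log2 fold change 3.14 ± 0.23, adjusted p = 0.00516), and UDP-glycosyltransferases had 3 higher and 6 lower of 102.

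Nuclear genes of mitochondrial respiration had 1 higher and 6 lower of 76 and a median of -1.41. The higher gene, AT5G61310, overlaps another gene on its strand and had 59.6 and 48.7 FPKM in RIP, 5.67 and 6.64 FPKM in Input and 589 and 583 FPKM in Mock. Glycolysis had 0 higher and 5 lower of 65, with a median of -0.89. The common housekeeping lists were displaced mildly, with medians of -0.85 for 66 proteasome and ubiquitin genes (0 called), -0.90 for 44 histone genes (0 called), -0.74 for 146 cytosolic ribosomal protein genes (0 higher, 5 lower) and -0.12 for 70 translation factors (0 higher, 4 lower). Heat shock proteins and DnaJ chaperones were above the background at 0.062, with 3 higher and 4 lower of 199. HSP17.6II, a small cytosolic chaperone, had 7.1 and 8.13 FPKM in RIP, 0.165 and 0.0898 FPKM in Input and no reads in either Mock library (log2 fold change 2.93 ± 0.16, adjusted p = 0.00286).

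The 10 called protein-coding genes with the largest falls and at least 10 reads in both Input libraries had log2 fold changes between -7.29 and -5.70. Among them, EXPB2 and AT2G18370 were given above, and AT5G42530, AT1G76960, AT2G43530, AT5G52390 and AT2G05510 had -6.73, -6.37, -6.30, -5.84 and -5.70 on the log2 scale. RCI2A, a small hydrophobic membrane protein induced by cold, had 2.85 and 2.33 FPKM in RIP, 283 and 292 FPKM in Input and 0 and 7.38 FPKM in Mock (log2 fold change -6.33 ± 0.12, adjusted p = 0.00236). AT4G30650, of the same family, had 0 FPKM in both RIP libraries, 145 and 146 FPKM in Input and no reads in either Mock library and was at least 105-fold lower. KIN1, a cold-induced hydrophilic protein, had 0 and 1.23 FPKM in RIP, 83.8 and 89 FPKM in Input and no reads in either Mock library (log2 fold change -5.87 ± 0.49, adjusted p = 0.00697). RIP held at most 4 reads of any of the 3 genes in either library, against at least 1865 in Input.

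Transcript length and Input level both ran through these differences. Lower protein-coding genes had a median exon length of 1167 nt and higher ones 1762 nt without the insertion, against 1770 nt for all 19056. By length decile the median log2 fold change climbed at every step, with -1.42 in the shortest genes (21 to 913 nt, 17.2% lower) and 0.13 in the longest (3200 to 16614 nt, 0.472% lower). Of the shortest genes 26.6% had no read in either RIP library, against 0.787% of the longest. At equal FPKM a short transcript has fewer expected reads, and the part of depth in this gradient was not tested. Higher genes differed by exon number: 68 of 171 outside the insertion (39.8%) had a single exon, against 13.5% of all protein-coding genes. With the insertion genes counted, 92 of 2578 single-exon genes (3.57%) were higher, against 0.275% of genes with over 10 exons. GC content moved as well, with medians of -1.20 in the lowest GC decile and -0.061 in the highest. By decile of Input level the median was -0.081 in the lowest and -1.01 in the highest, though not every step fell. Both RIP libraries were below both Input libraries for 34.3% of genes in the lowest Input decile and 78.6% in the highest.

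**Figure D4:**
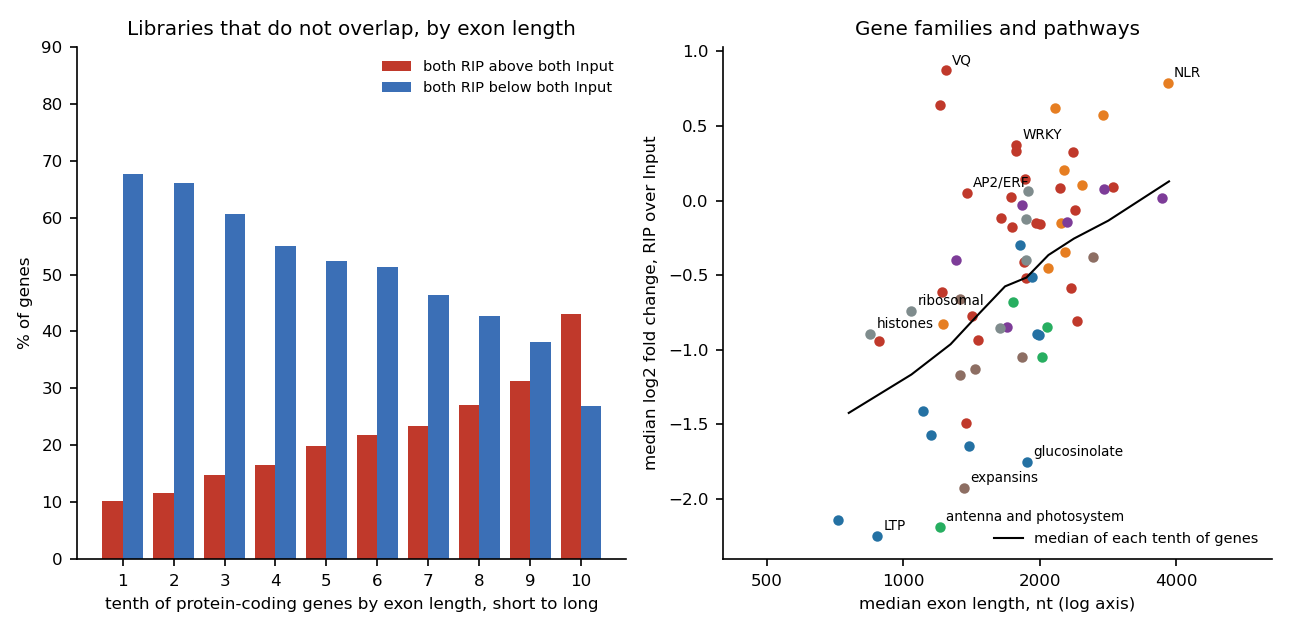
Left, % of protein-coding genes with both RIP libraries above or below both Input libraries, by decile of exon length; right, median log2 fold change against median exon length (log axis) of gene lists, coloured by theme as in the plot of list medians, with the median of each length decile as a line. The share above Input climbs from 10.3% in the shortest decile to 43.1% in the longest, and VQ genes stand above the line while glucosinolate genes stand below it.

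Subtracting from each gene the median of its length decile, a step added after the data were seen, left most of the contrasts between lists in place. The median difference was 1.54 for VQ proteins, 1.20 for C2H2 zinc finger genes, 0.96 for heat shock factors, 0.89 for WRKY, 0.87 for U-box and ATL ligases, 0.85 for AP2/ERF and 0.76 for NLR genes, whose median exon length was 3828 nt. On the other side it was -1.24 for glucosinolate genes, -1.17 for expansins, -1.06 for antenna and photosystem subunits, -0.86 for lipid transfer proteins, -0.86 for thionins, defensins and PR proteins and -0.76 for peroxidases. Some lists below the background stood above genes of their length: cytosolic ribosomal protein genes at 0.39, SAUR genes at 0.35, histones at 0.29, LBD factors at 0.28, calmodulins and EF-hand sensors at 0.08 and xyloglucan endotransglucosylases at 0.063. The length step was run on the main values alone. Before it, each list named in this paragraph stayed on the same side of the median of all features in 10 of the 10 alternatives that change fold changes, except SAUR genes with 9 and LBD factors with 7. Lists near the background changed side more often: bHLH genes kept theirs in 4, cytochromes P450 in 5, the MAP kinase cascade in 7 and spliceosomal proteins and clock genes in 8.

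Mock shared part of the pattern. Antenna and photosystem genes took 0.298 of their Input share in RIP and 0.249 in Mock, and expansins 0.308 in RIP and 0.232 in Mock. NLR genes took 2.03 times their Input share in RIP and 1.11 times in Mock, AP2/ERF genes 2.39 and 0.931 times, and VQ genes 2.84 and 0.335 times. The Mock libraries differed from each other: for antenna and photosystem genes Mock 1 was below and Mock 2 above both RIP libraries, with 43318 and 40056 CPM in RIP and 17911 and 51677 in Mock. For AP2/ERF genes Mock 1 was below and Mock 2 above both Input libraries, with 1499 and 1518 CPM in Input and 894 and 1914 in Mock. In 3 of 66 lists the mean Mock share exceeded that of RIP: aquaporins took 0.515 times their Input share in RIP and 0.594 times in Mock, TCP and GRF factors 4.6 times their Input share in RIP and 142 times in Mock and type-A response regulators 23 times their Input share in RIP and 891 times in Mock. Such sums do not describe a typical member of the lists that hold GRF8 and RR3. The median log2 fold change was 0.14 for TCP and GRF factors and -1.27 for type-A response regulators. Of the 7 type-A genes, 4 lay below Input in both RIP libraries and 1 above. Of the 171 higher protein-coding genes, 66 had no Mock reads, but a single read was worth 5.05 and 6.49 CPM in Mock, so a 0 there leaves room for the levels seen in Input.

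**Figure D5:**
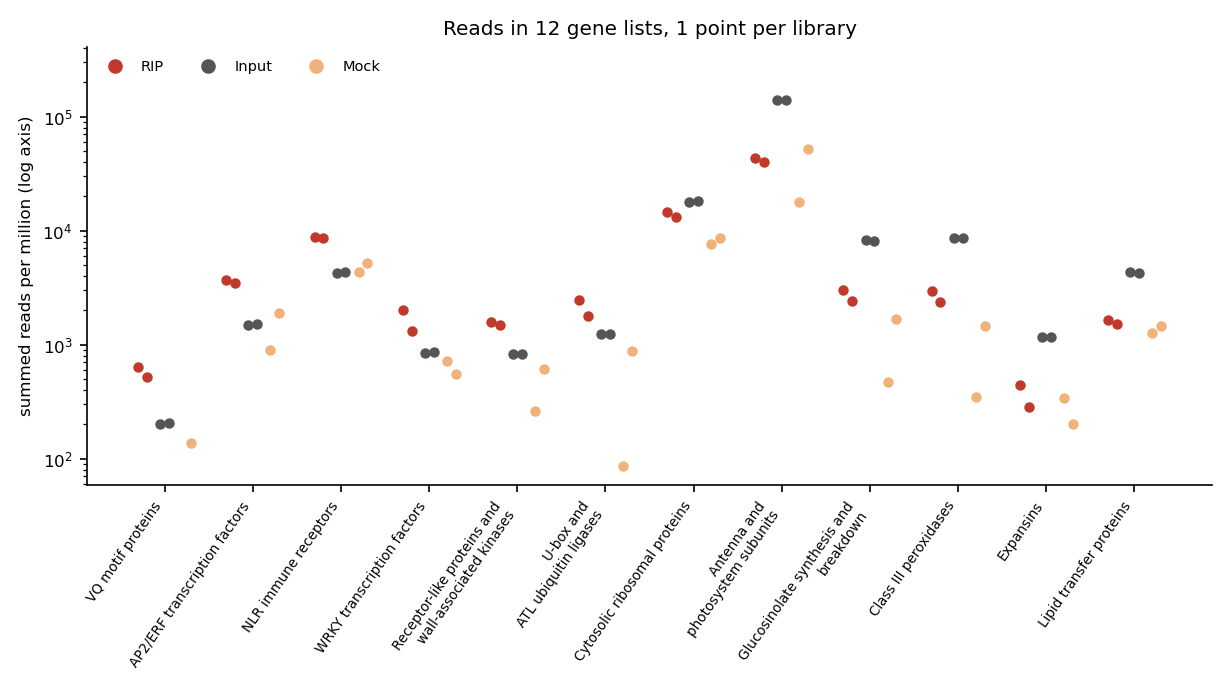
Summed CPM (vertical, log axis) of 12 gene lists in each library, RIP left of Input and Mock at the right within each list. Both RIP points lie above both Input points for the 6 lists from VQ to U-box and ATL genes and below them for the other 6; VQ genes had 0 reads in Mock 1, which a log axis cannot show.

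Genes that the study examined by quantitative PCR lay on several sides of the threshold. Those given above include WRKY40, WRKY18, CAF1a and SAUR72 (AT3G12830), all called higher with log2 fold changes of 4.02, 2.82, 4.02 and 3.98. GUT15, also given above, fell just short. AT4G36648, a non-coding RNA, had 356 and 485 FPKM in RIP, 54.8 and 53.9 FPKM in Input and 2.4 and 64.7 FPKM in Mock (log2 fold change 2.91 ± 0.19, adjusted p = 0.00389). OCT4, an organic cation transporter, had 23.2 and 16.1 FPKM in RIP, 1.85 and 1.94 FPKM in Input and no reads in either Mock library and missed the threshold (log2 fold change 2.81 ± 0.30, adjusted p = 0.0123), as did RAV2, an AP2/B3 repressor, with 232 and 95 FPKM in RIP, 17 and 16.4 FPKM in Input and 0 and 113 FPKM in Mock (log2 fold change 3.08 ± 0.51, adjusted p = 0.0316). FPA, an RNA-binding protein of 3′ end formation, had 17.3 and 16.7 FPKM in RIP, 9.13 and 9.99 FPKM in Input and no reads in either Mock library (log2 fold change 0.77 ± 0.16, adjusted p = 0.051). The common reference PP2AA3, a phosphatase subunit, stood at the background with 18.4 and 18.5 FPKM in RIP, 27.4 and 26.2 FPKM in Input and 2.12 and 0 FPKM in Mock (log2 fold change -0.52 ± 0.11, adjusted p = 0.0537). AT5G38005, a non-coding RNA, had 14.9 and 5.63 FPKM in RIP, 3.27 and 2.76 FPKM in Input and no reads in either Mock library (log2 fold change 1.36 ± 0.55, adjusted p = 0.17). ERF1 (AT3G23240) and AT5G09475 did not reach the level needed for testing, nor did NSRb, the paralog of NSRa.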

How the data were processed

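RNA immunoprecipitation sequencing gave 2 RIP, 2 Input and 2 Mock libraries of 75 bp single-end, stranded, rRNA-depleted reads. The authors aligned reads with STAR to TAIR10 and counted them strand-specifically with summarizeOverlaps (versions are not given in the sources used here), and deposited FPKM values, not counts. Values were whole multiples of what 1 read is worth for 99.1% to 99.3% of features per library (tolerance 0.01 read), which gave back reads and depth. The design had allowed for either unit, and limma was used. Symbols, products, exons, coordinates and sequences came from RefSeq TAIR10.1.

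Features at 1 FPKM or more in at least 2 of the 4 RIP and Input libraries were tested with limma 3.58.1 (R 4.3.3) on log2(FPKM + 1) with a mean-variance trend, group as the only term and Benjamini-Hochberg adjustment over all 19954. A fold change on this scale understates changes of low features. Higher meant a log2 fold change above 2, and lower below -2, at adjusted p under 0.01. On simulated data, of 200 changed features at 20 to 200 CPM with a log2 change of 3 or -3, 100% and 81% were recovered. In the same runs 16 and 13 unchanged features were called. The simulation gave every library the same dispersion. The real pooled SD was 0.927 in RIP and 0.0878 in Input, so these rates do not carry over to these data. "At least" folds set RIP at a floor of 3 reads over both libraries. Tables used Python 3.11.15, pandas 2.3.3 and numpy 2.4.6, and plots matplotlib 3.10.9.

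Members and lists were chosen with earlier results of these data known. List members whose product did not match the list's name, and genes of the chromosome 2 insertion, were removed after values were seen. Genes were named by rule: the 10 largest and 10 smallest called protein-coding fold changes with at least 10 reads in both libraries of the higher group, up to 3 called members per list and direction (otherwise the member highest in Input), the 2 highest features per non-coding class, the genes of the study's RIP-qPCR, NSRa and NSRb. Lists were described by counts and medians, with no test. Alternatives changed the pseudocount, filter, scaling, libraries, model, fold threshold, replicate block and Input depth.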

Additional observations from a re-analysis of the deposited data

How the results depend on the processing

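The counts of called features moved widely, and the causes were not tested. Higher features numbered 327 and lower ones 1196. Without a filter there were 181 higher and 334 lower, and with quantile normalization 505 and 546. With voom on recovered reads there were 7 and 0 (limma; 2794 and 5271 at an unadjusted p under 0.05), and with Input thinned to RIP depth 11 and 0 (2113 and 5050). Lower features numbered 2047 with a pseudocount of 0.25 FPKM, 444 with 4 FPKM, 432 at a mean of at least 5 FPKM, 2310 at a log2 fold change below -1, and 574 with at least 10 RIP reads expected or observed, an alternative chosen after seeing the data. Leaving out 1 library gave 16 to 909 higher and 839 to 3182 lower features; the lone library of a group is then assumed to vary like the pair of the other. Median-of-ratios scaling, at 422 and 1040, and a fit over all 6 libraries, at 296 and 1156, stayed within 1.5 times, and the fit over all 6 libraries shared 202 higher and 999 lower features with the 4-library fit.

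A replicate block left 40 features called on the higher side and 0 on the lower (limma; 1719 and 5356 at an unadjusted p under 0.05). Deviations of same-numbered libraries correlated at 0.00924 over 2 pairs, and no label says that equal numbers mark the same lysate, so whether the numbers pair the libraries was not settled and the pairing was not used. With the block 13 of 184 named calls were kept. Precision is limited by RIP depth, at which 891 of the 1196 lower features had no reads, and by duplicates.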
